A study of Mus musculus with 8 samples.

Results

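The genes of ATF4 signalling and of serine and glycine synthesis were followed in cultured brain pericytes exposed to TGF-β1. The 10 genes were chosen by name: the transcription factor *Atf4*, the serine synthesis enzymes *Phgdh*, *Psat1* and *Psph*, the folate enzymes *Shmt2* and *Mthfd2*, and the ATF4 targets *Asns*, *Trib3*, *Ddit3* and *Slc7a11*. All 10 were found among the 54532 gene identifiers, and all 10 were among the 22544 genes tested. RNA was sequenced from 8 primary cultures of brain pericytes from wild-type (WT) mice, numbered 1 to 8. The methods describe 4 isolates given both treatments, but the labels do not say which cultures share an isolate. Replicates 1 to 4 received vehicle, replicates 5 to 8 received TGF-β1 at 5 μg/mL, and both groups were treated for 48 h. According to the methods, cells were released from brain with papain, plated on collagen I and expanded through several passages in growth factor medium, so every culture carries that expansion. The labels give neither the age nor the sex of the animals, and the methods do not tie the ages and sex of the study's mice to these cultures.

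Serine is made from a glycolytic intermediate by PHGDH, PSAT1 and PSPH in turn, and serine hydroxymethyltransferase then splits it into glycine and a one-carbon unit carried on folate. ATF4 is a transcription factor that switches on many of these enzymes, along with amino acid transporters and tRNA synthetases, when amino acids run short or proteins misfold. ATF4 protein is controlled largely through translation of its mRNA after eIF2α phosphorylation, and its targets are read here only as mRNA. Glycine and proline are the most frequent residues of fibrillar collagen, and TGF-β1 is a known inducer of collagen genes.

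The libraries held 45255235 to 47651397 counts each, at which 3 counts equal 0.0631 to 0.0658 CPM (the count scaled to the size of its library with TMM factors), so the 447 to 12762 counts behind each value of the 10 genes were far above that limit. Across all genes, 41.3% of those tested passed the threshold (edgeR quasi-likelihood test, adjusted p under 0.05), with 20.9% higher and 20.3% lower with TGF-β1, and 37.9% had groups that did not overlap. Among the 10195 genes with a mean of at least 10 CPM, where all 10 genes lie, 60.9% passed, 33.8% as higher and 27.1% as lower. The pericyte label was checked against 11 markers, whose summed level was 419 to 439 CPM with vehicle and 578 to 601 CPM with TGF-β1. Of the 8 markers tested, 3 rose, 2 fell and 3 did not pass the test. *Pdgfrb* rose from 202 to 291 CPM on average and *Cspg4* from 82.9 to 169 CPM, while *Rgs5* fell from 8.62 to 2.13 CPM and *Anpep* from 40.5 to 30.1 CPM. *Kcnj8*, *Abcc9*, *Vtn*, *Higd1b* and *Des* were under 1 CPM. Of these, *Kcnj8*, *Abcc9* and *Vtn* had too few counts to be tested. *Higd1b* (5 to 25 counts per culture) and *Des* (25 to 36) were low but above the limit of 3 counts. In these bulk samples, fewer cells of a type and less RNA per cell cannot be told apart.

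Of the 10 genes, 6 rose and 1 fell with TGF-β1, and 3 did not pass the test. This share, 7 of 10, stands beside 41.3% of all genes tested and 60.9% of genes with a mean of at least 10 CPM. The groups did not overlap for 5 of the 10 (*Psat1*, *Shmt2*, *Asns*, *Trib3* and *Slc7a11*), beside 37.9% of all genes and 56.7% of genes with a mean of at least 10 CPM. The median log2 fold change of the 10 was 0.12, against -0.01 for all genes tested. Without regard to direction the median was 0.14, against 0.18 for all genes tested and 0.13 for those with a mean of at least 10 CPM. The changes of *Slc7a11*, *Trib3* and *Shmt2* were larger in size than those of 83.0%, 74.1% and 73.4% of the genes tested, and that of *Atf4* was larger than 0.337%. The lowest and highest log2 fold changes were -0.53 (*Slc7a11*) and 0.38 (*Trib3*). The coefficient of variation within a group ran from 1.09% to 8.10% over the 10 genes.

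**Figure D1:**
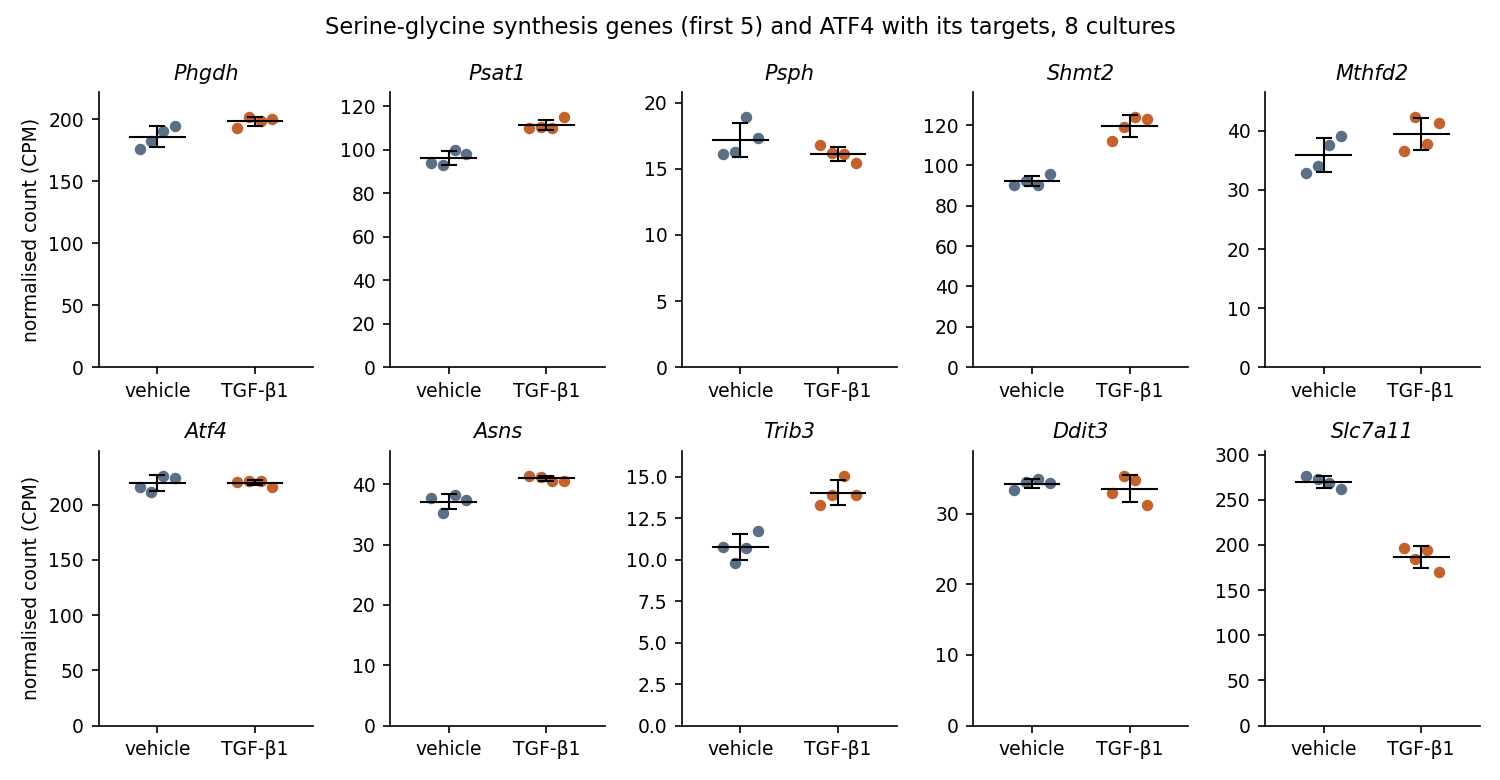
Normalised count (CPM, linear axis from 0) of the 10 genes in each culture, with 4 vehicle and 4 TGF-β1 cultures per gene as points and the mean ± SD as bars. The groups separate for *Psat1*, *Shmt2*, *Asns*, *Trib3* and *Slc7a11*, and *Slc7a11* is the one that is lower with TGF-β1.

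The letters TGATGNAA are the core of the C/EBP-ATF response element, at which ATF4 binds with C/EBP partners, and they were searched on both strands in the 250 bases before each RefSeq gene start (GRCm38.p6). A match was found for 2 of the 10 genes, *Asns* and *Slc7a11*, beside 3.45% of all 32851 windows and 2.56% of the 12971 tested genes with a window. The sites are shown because these genes moved in opposite directions, each 5′ to 3′ on the strand of the gene, with the match in capitals. The *Asns* site lies at chr6:7693214-7693243 on the minus strand, within the first exon that GENCODE M21 gives that gene. *Slc7a11* has a match on each strand within chr3:50443651-50443680, minus strand, upstream of the annotated exons.
Asns: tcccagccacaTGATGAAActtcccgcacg
Slc7a11: cTGATGCAAacctggagaatTTGCATCAtc

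For *Shmt2* (chr10:127522445-127522544) and *Trib3* (chr2:152344061-152344160), the genes with the highest log2 fold changes, no match was found. The 100 bases before their starts, on the minus strand, are given for comparison. The absence says only that these letters are not in this window.
Shmt2: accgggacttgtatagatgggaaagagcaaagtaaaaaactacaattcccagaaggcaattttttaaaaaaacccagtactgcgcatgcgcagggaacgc
Trib3: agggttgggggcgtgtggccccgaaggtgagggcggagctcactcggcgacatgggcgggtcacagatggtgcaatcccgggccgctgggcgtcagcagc

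Of the 39 other named genes with a window, 5 had a match. These were *Chac1* (chr2:119351038-119351067, plus strand), *Atf3* (chr1:191183425-191183454, minus), *Pck2* (chr14:55540152-55540181, plus), *Pycr1* (chr11:120643833-120643862, minus) and *Gars* (chr6:55037960-55037989, plus). With TGF-β1, 3 of these 5 genes rose (*Chac1*, *Pycr1* and *Gars*), while *Atf3* and *Pck2* did not pass the test. Beside this, 20.9% of all genes tested and 33.8% of those with a mean of at least 10 CPM rose. *Gars* had been named for its change, as one of the 3 largest of its list, and a difference from those shares was not tested.
Chac1: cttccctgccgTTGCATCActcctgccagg
Atf3: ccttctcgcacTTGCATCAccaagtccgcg
Pck2: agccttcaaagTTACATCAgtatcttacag
Pycr1: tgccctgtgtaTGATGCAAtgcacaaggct
Gars: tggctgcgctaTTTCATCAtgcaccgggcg

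*Phgdh* (chr3:98313170-98339990, GRCm38), which encodes the enzyme that commits the glycolytic intermediate to serine, measured 176, 182, 191 and 195 CPM in vehicle replicates 1 to 4 and 194, 202, 199 and 200.2 CPM in TGF-β1 replicates 5 to 8. Vehicle replicates 1 and 2 were the lowest, and vehicle replicate 4 lay above TGF-β1 replicate 5, so the groups overlapped. *Phgdh* rose by 0.09 on the log2 scale (SE 0.03, adjusted p = 0.0038). Of the 50-base words of its transcripts, 47.8% also occur in other genes, mostly processed pseudogenes, so its count depends on how shared reads were assigned. None of the 22 genes that share words with it held more than 72 counts in any culture.

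*Psat1* (chr19:15904678-15947337), the aminotransferase of the next step, measured 93.9, 92.8, 99.8 and 98.2 CPM with vehicle and 109.9, 110.5, 110.2 and 115 CPM with TGF-β1. Every TGF-β1 culture lay above every vehicle culture. The rise was 15.8% (log2 fold change 0.21, SE 0.03, adjusted p = 3.1e-08).

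*Psph* (chr5:129765558-129787449), the phosphatase that releases serine, measured 16.1, 16.3, 18.9 and 17.4 CPM with vehicle and 16.8, 16.2, 16.1 and 15.5 CPM with TGF-β1. The groups overlapped, with the highest value in vehicle replicate 3. The log2 fold change of -0.09 (95% interval -0.21 to 0.03) did not pass the test (adjusted p = 0.223). *Psph* overlaps *Cct6a*, which lies on the other strand, and 8.82% of its 50-base words also occur there. *Cct6a* itself rose by 0.19 (adjusted p = 9.1e-08), and the strand setting of the counting is not given in the sources used here, so a share of *Psph* counts could belong to it.

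*Shmt2* (chr10:127517123-127522444) encodes the mitochondrial enzyme that converts serine to glycine. It measured 90.4, 92.2, 90.2 and 95.8 CPM with vehicle and 112, 119, 124 and 123 CPM with TGF-β1. All TGF-β1 cultures were above all vehicle cultures, and the rise was 29.7% (log2 fold change 0.38, SE 0.03, adjusted p = 3e-14). Its adjusted p was the lowest of the 10 genes.

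The cytosolic isoenzyme *Shmt1* went the other way. It measured 20.6, 19.96, 19.9 and 21.9 CPM with vehicle and 16.3, 14.9, 16.4 and 16.2 CPM with TGF-β1, without overlap, and fell by 0.37 on the log2 scale (SE 0.05, adjusted p = 1.8e-07). The ratio of *Shmt2* to *Shmt1* counts, in which the scaling of a library cancels, was 4.40, 4.62, 4.53 and 4.36 in vehicle replicates 1 to 4 and 6.88, 7.96, 7.56 and 7.62 in TGF-β1 replicates 5 to 8. The groups did not overlap. The mean ratio was 4.48 ± 0.119 with vehicle and 7.50 ± 0.454 with TGF-β1 (SD, n = 4 each), a 1.67-fold difference (0.74 on the log2 scale, exact two-sided permutation test p = 0.0286, the smallest that 4 against 4 can give). Since *Shmt2* was higher and *Shmt1* lower in every TGF-β1 culture, the separation of the ratio, and with it this p, followed from the single genes. The test treats the 8 cultures as unpaired, although the methods describe 4 isolates given both treatments. Fewer rearrangements are possible within isolates, so a paired test could not reach a p this small.

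**Figure D2:**
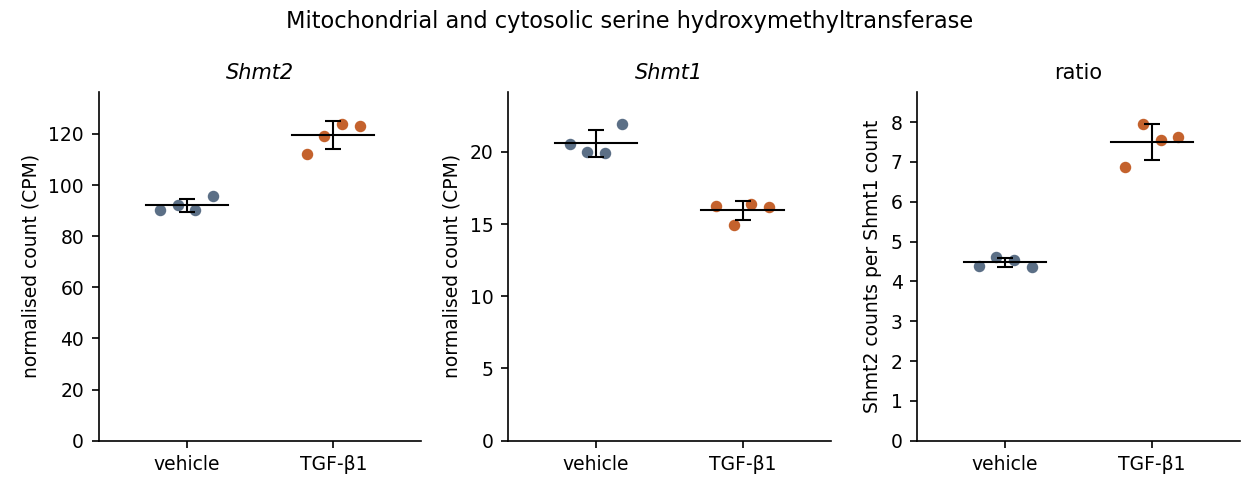
*Shmt2* and *Shmt1* (CPM) and the ratio of their counts in each culture, on linear axes from 0, with the mean ± SD of 4 cultures per group. *Shmt2* is higher and *Shmt1* lower in every TGF-β1 culture, and the ratio lies between 6.88 and 7.96 with TGF-β1 and between 4.36 and 4.62 with vehicle.

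*Mthfd2* (chr6:83305691-83325908), the mitochondrial dehydrogenase that oxidises the folate-bound unit, measured 32.9, 34.1, 37.5 and 39.1 CPM with vehicle and 36.6, 42.3, 37.8 and 41.3 CPM with TGF-β1. The groups overlapped, with vehicle replicates 3 and 4 inside the range of the TGF-β1 cultures. It rose by 0.14 on the log2 scale (SE 0.05, adjusted p = 0.038), and this call was lost with DESeq2 (adjusted p = 0.0681). Without TGF-β1 replicate 6 the adjusted p was 0.136, without TGF-β1 replicate 8 it was 0.0796, and without vehicle replicates 1 or 2 it was 0.11 and 0.116.

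*Atf4* (chr15:80255184-80257541) measured 216, 211.5, 226 and 224 CPM with vehicle and 220.1, 221, 221 and 216 CPM with TGF-β1. The TGF-β1 cultures lay inside the range of the vehicle cultures. The log2 fold change was 0.00 (SE 0.02, adjusted p = 0.972), with a 95% interval from -0.05 to 0.05.

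*Asns* (chr6:7675169-7693254), asparagine synthetase and a standard ATF4 target, measured 37.7, 35.3, 38.2 and 37.3 CPM with vehicle and 41.4, 41.3, 40.6 and 40.6 CPM with TGF-β1. The groups did not overlap. The rise was 10.4% (log2 fold change 0.14, SE 0.04, adjusted p = 0.00195).

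*Trib3* (chr2:152337422-152344032) encodes a pseudokinase that is induced by ATF4 with CHOP. It measured 10.7, 9.80, 10.7 and 11.7 CPM with vehicle and 13.3, 13.9, 15.1 and 13.9 CPM with TGF-β1, without overlap. The rise of 30.5% (log2 fold change 0.38, SE 0.07, adjusted p = 4.3e-06) was of the same size as that of *Shmt2*, at a lower level.

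*Ddit3* (chr10:127290774-127296288), which encodes CHOP, the transcription factor of sustained endoplasmic reticulum stress, measured 33.4, 34.4, 34.8 and 34.3 CPM with vehicle and 32.9, 35.4, 34.7 and 31.2 CPM with TGF-β1. The TGF-β1 cultures spread to both sides of the vehicle cultures. The log2 fold change of -0.03 (95% interval -0.12 to 0.05) did not pass the test (adjusted p = 0.613). Of its exon bases, 10.9% overlap other genes, among them *Mars* on the other strand, and a further identifier of the same symbol held no counts.

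*Slc7a11* (chr3:49892526-50443614) encodes the light chain of the cystine-glutamate exchanger, which brings in cystine for glutathione. It measured 277, 273, 268 and 262 CPM with vehicle and 197, 184, 195 and 170.4 CPM with TGF-β1. All TGF-β1 cultures lay below all vehicle cultures, and TGF-β1 replicate 8 was the lowest. It fell by 30.8% (log2 fold change -0.53, SE 0.04, adjusted p = 1.8e-10), the only one of the 10 genes that fell. *Slc3a2*, its heavy chain, also fell, by 0.25 on the log2 scale (adjusted p = 6.3e-12).

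Levels of different genes were compared per length, as RPKM (CPM per kilobase of the gene's merged exons). With vehicle the order was *Atf4* (93.1 ± 2.97 RPKM, SD, n = 4), *Phgdh* (74.9 ± 3.36), *Shmt2* (29.6 ± 0.827), *Psat1* (22.6 ± 0.786), *Ddit3* (19.99 ± 0.354), *Slc7a11* (19.4 ± 0.472), *Asns* (13.6 ± 0.471), *Mthfd2* (10.3 ± 0.834), *Trib3* (5.06 ± 0.368) and *Psph* (3.97 ± 0.297). *Ddit3* and *Slc7a11*, neighbours in this order, did not differ beyond their spread. With TGF-β1, *Slc7a11* (13.4 ± 0.871 RPKM) lay below *Asns* (15.0 ± 0.169), and the order of the others was as with vehicle. The merged exons of *Slc7a11* span 13922 bases in GENCODE M21, against 1713 to 4329 for the other genes, and RPKM was not computed with another gene model.

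The vehicle cultures also differed among themselves. In 5 of the 10 genes (*Atf4*, *Phgdh*, *Psat1*, *Psph* and *Mthfd2*), vehicle replicates 3 and 4 were both above vehicle replicates 1 and 2, an order found in 21.0% of all genes tested. In *Slc7a11*, vehicle replicates 3 and 4 were both below vehicle replicates 1 and 2. The share with the first order among genes with a mean of at least 10 CPM was not computed. No batch is given in the labels, and the part of these orders in the results was not tested.

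The lists around the 10 genes are given by their counts, to be set beside 20.9% higher and 20.3% lower among all genes tested, and 33.8% and 27.1% among those with a mean of at least 10 CPM, whose median log2 fold changes were -0.01 and 0.02. The other one-carbon and glycine genes were split: of 22 tested, 10 (45.5%) rose, 5 (22.7%) fell and 7 did not pass the test, with a median of 0.02. In the mitochondrial branch, *Mthfd1l*, the formate-producing synthetase, rose by 0.53 (SE 0.04, adjusted p = 5.8e-17), from 40.6 to 58.7 CPM on average. *Aldh1l2*, the mitochondrial formyl-folate dehydrogenase, rose by 0.28 (adjusted p = 3.9e-09). *Mthfd2l*, the paralogue of *Mthfd2*, had a log2 fold change of 0.02 (adjusted p = 0.85), and *Sfxn1*, the mitochondrial serine carrier, one of -0.05 (adjusted p = 0.215). *Gldc*, the decarboxylase of the mitochondrial glycine cleavage system, fell by 0.94 (SE 0.07, adjusted p = 1.4e-14), from 12.9 to 6.71 CPM, the largest fall of this list. The other genes of that system went both ways. *Amt* fell by 0.33 (adjusted p = 0.0019), *Gcsh* rose by 0.31 (adjusted p = 7.2e-07) and *Dld* did not pass the test (0.02, adjusted p = 0.698).

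In the cytosol, *Mthfd1*, which interconverts folate-bound units, rose by 0.18 (adjusted p = 5.5e-06), and *Aldh1l1* rose by 0.77 (adjusted p = 1.7e-10) from 5.16 to 8.79 CPM. Cell cycle genes were measured beside these: of 12 tested, 8 (66.7%) rose (*Bub1* by 0.35, *Rrm2* by 0.25 and *Top2a* by 0.20 on the log2 scale) and 0 fell in edgeR, where 0 were lower at an unadjusted p under 0.05 and 0 in DESeq2. Their summed level was 1639 to 1779 CPM with vehicle and 1865 to 1890 CPM with TGF-β1. The part of the cell cycle genes in the one-carbon changes was not tested.

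**Figure D3:**
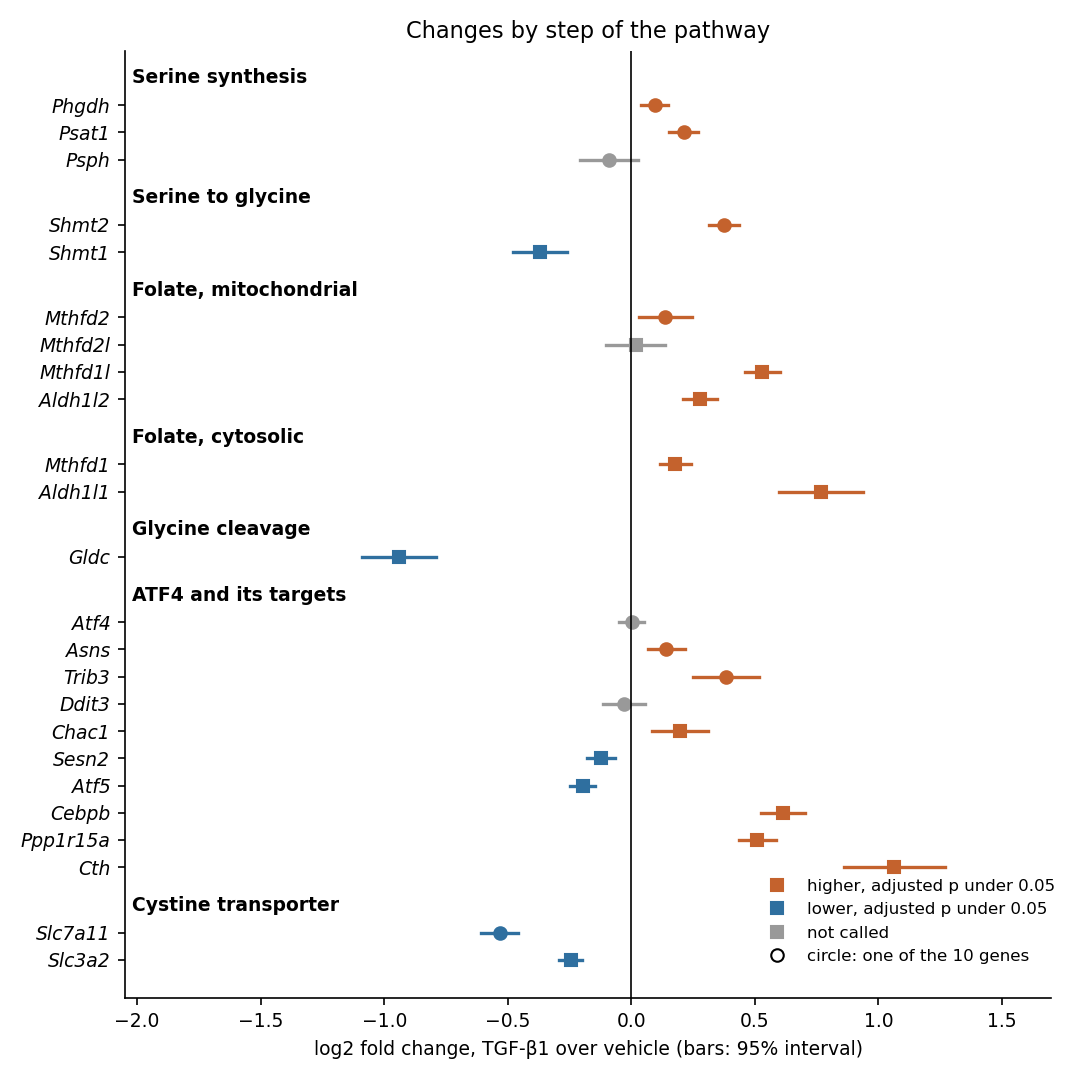
Log2 fold change (TGF-β1 over vehicle) with its 95% interval for genes ordered by step, where circles are the 10 genes and squares other named genes. *Shmt2* (0.38) and *Mthfd1l* (0.53) lie to the right of 0, *Shmt1* (-0.37), *Gldc* (-0.94) and *Slc7a11* (-0.53) to the left, and *Atf4* is at 0.00.

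Other targets of ATF4 were also split, with 14 of 34 (41.2%) higher, 10 (29.4%) lower and 10 not passing the test, and a median of 0.02. Among those that rose were *Cth*, which makes cysteine (1.06, adjusted p = 4.4e-12, from 3.11 to 6.50 CPM), the transcription factor *Cebpb* (0.62, adjusted p = 2.6e-14), *Ppp1r15a*, the stress-induced subunit of the eIF2α phosphatase (0.51, adjusted p = 5e-16), and the glutathione-degrading *Chac1* (0.20, adjusted p = 0.00406). *Gdf15*, a stress cytokine, rose by 0.72 (adjusted p = 0.00402) at a level near 1 CPM. Of the exon bases of *Cebpb*, 20.7% overlap *Tmem189* on the other strand, and the strand setting of the counting is not given.

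The largest falls were those of the amino acid transporter *Slc7a5* (by 0.46, adjusted p = 8.2e-14), the transaminase *Gpt2* (by 0.33, adjusted p = 5.5e-10), the stress gene *Ddit4* (by 0.31, adjusted p = 2.6e-12) and the transcription factor *Jdp2* (by 0.25, adjusted p = 4.2e-07). Smaller falls were seen in the transcription factors *Atf5* (by 0.20, adjusted p = 8.5e-09) and *Cebpg* (by 0.19, adjusted p = 5e-06) and in *Sesn2*, another stress gene (by 0.12, adjusted p = 0.000324). Among other amino acid transporters, *Slc1a5* rose by 0.27 (adjusted p = 2.2e-06), *Slc1a4* fell by 0.15 (adjusted p = 0.000199) and *Slc6a9*, a glycine transporter, fell by 0.16 (adjusted p = 0.0241), the last a call that was lost with DESeq2 (adjusted p = 0.0694). Of the exon bases of *Slc6a9*, 30.2% overlap genes on the other strand. The transporters *Slc7a1* (-0.07), *Slc7a3* (-0.12) and *Slc38a2* (0.03) did not pass the test, nor did *Atf3* (-0.19, adjusted p = 0.106), *Pck2* (-0.04, adjusted p = 0.404) or *Stc2* (0.02, adjusted p = 0.775).

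Of 20 cytosolic tRNA synthetase genes, 11 (55.0%) rose, 0 fell and 9 did not pass the test, with a median of 0.08 (edgeR; 1 was lower at an unadjusted p under 0.05, and DESeq2 called 0 lower). The largest changes were in *Gars* (0.28, adjusted p = 8.2e-12), *Nars* (0.18, adjusted p = 4.8e-07) and *Cars* (0.17, adjusted p = 8.1e-07), which charge glycine, asparagine and cysteine tRNAs. With library totals or upper-quartile scaling, and without vehicle replicate 1 or TGF-β1 replicate 8, 1 of the 20 was called lower.

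Genes of the eIF2 kinases, the phosphatase and related factors rose in 10 of 19 (52.6%) and fell in 2 (10.5%), with a median of 0.09. *Eif2ak4*, the kinase that senses uncharged tRNA, rose by 0.17 (adjusted p = 4.8e-05). *Eif2ak3*, the kinase of the endoplasmic reticulum, had a log2 fold change of -0.01 (adjusted p = 0.932). The genes that fell were *Eif2ak2*, the kinase that binds double-stranded RNA (by 0.48, adjusted p = 4.1e-16), and *Dele1*, which relays mitochondrial stress (by 0.22, adjusted p = 0.000104).

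Chaperones and the ATF6 and XBP1 arms of the unfolded protein response rose in 18 of 24 genes (75%) and fell in 1 (4.17%), with a median of 0.13. *Hspa5*, the main chaperone of the endoplasmic reticulum, rose by 0.11 (adjusted p = 0.000541), *Ern1*, the sensor of the XBP1 arm, by 0.34 (adjusted p = 7.2e-12), *Hyou1* by 0.32 (adjusted p = 3.4e-14) and *Dnajb9* by 0.26 (adjusted p = 1e-08). *Ddit3*, which belongs to the same response, did not pass the test.

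**Figure D4:**
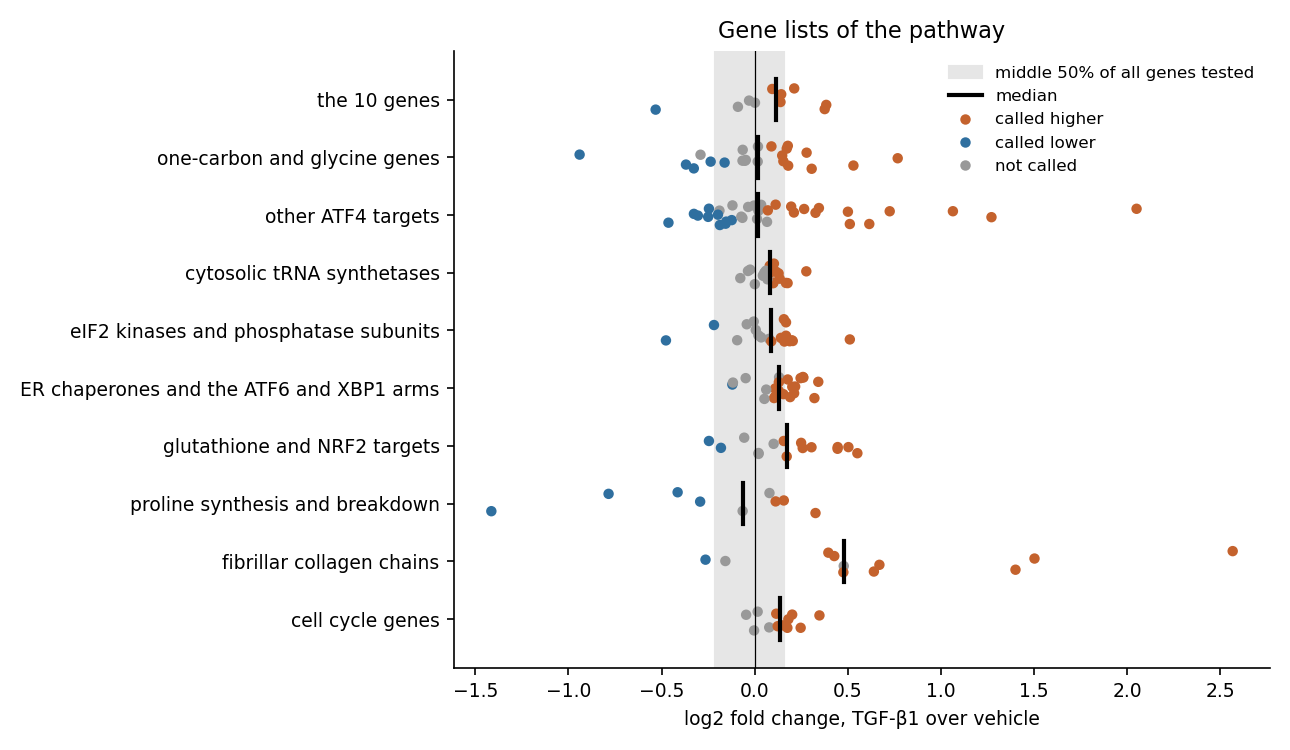
Log2 fold change (TGF-β1 over vehicle) of each tested gene in the 10 genes and in 9 lists, coloured by call, with the median of each list as a black line and the middle 50% of all genes tested in grey. The median of the 10 genes (0.12) lies within the grey band and those of the glutathione and NRF2 targets (0.17) and the fibrillar collagens (0.48) lie to its right.

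Glycine enters collagen and glutathione, and proline, which is made from glutamate, enters collagen. Of 11 fibrillar collagen chain genes, 8 (72.7%) rose and 1 (9.09%) fell (median 0.48), and their summed level went from 5334 to 5619 CPM with vehicle to 8468 to 8743 CPM with TGF-β1. *Col1a1* rose by 0.67 (from 1587 to 2525 CPM, adjusted p = 3.3e-28), *Col5a2* by 1.40 and *Col5a3* by 2.57, and *Col11a1* rose from 85.2 to 241 CPM. Set beside these named chains, the 0.09 to 0.38 of *Phgdh*, *Psat1*, *Shmt2* and *Mthfd2* were smaller on the log2 scale, and *Psph* (-0.09) did not pass the test. Other chains changed less: *Col5a1* (0.40) and *Col1a2* (0.43) were close to *Shmt2* (0.38), and *Col11a2* fell (-0.26, adjusted p = 0.0032).

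Among 9 genes of proline synthesis and breakdown, 3 (33.3%) rose and 4 (44.4%) fell (median -0.06). The synthesis enzymes *Aldh18a1* (0.11, adjusted p = 0.00155) and *Pycr1* (0.33, adjusted p = 0.000192) rose. The breakdown enzymes *Prodh* (by 1.41, adjusted p = 3.3e-19, from 11.3 to 4.25 CPM) and *Aldh4a1* (by 0.41, adjusted p = 7.2e-11) fell, as did glutamine synthetase, *Glul* (by 0.78, adjusted p = 2.6e-29). Of the exon bases of *Aldh4a1*, 32.5% overlap another gene on the same strand, so its count is uncertain.

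Of 15 glutathione and NRF2 target genes, 9 (60.0%) rose and 2 (13.3%) fell (median 0.17). *Hmox1*, haem oxygenase, rose by 0.55 (adjusted p = 8.1e-23), *Gclm*, the modifier subunit of the first glutathione enzyme, by 0.50 (adjusted p = 1.2e-17), and *Me1*, malic enzyme, by 0.45 (adjusted p = 6.3e-16). The genes that fell were *Gclc*, the catalytic subunit of that enzyme (by 0.18, adjusted p = 9.1e-09), and *Slc3a2*. *Slc7a11*, a target of both NRF2 and ATF4, also fell.

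Markers of other cell types were measured beside these results. Astrocytes are known to express *Phgdh*. The summed level of 9 astrocyte markers was 64.8 to 71.8 CPM with vehicle and 47.2 to 53.5 CPM with TGF-β1, with *Gfap*, *Aqp4* and *Gjb6* under 1 CPM. Without *Slc1a2*, the highest of the list, the other 8 summed to 28.9 to 30.6 CPM with vehicle and 31.4 to 35.7 CPM with TGF-β1. The list went both ways: of 8 markers tested, 4 fell and 2 rose. Besides *Slc1a2*, the genes that fell were *S100b* (-1.55, adjusted p = 3.4e-14), *Gjb6* (-3.97, adjusted p = 1.1e-09) and *Fgfr3* (-0.38, adjusted p = 0.0034). The glutamate transporter *Slc1a2* fell from 38.5 to 16.3 CPM on average (adjusted p = 4.9e-23), while *Slc1a3*, another glutamate transporter, rose from 9.74 to 15.2 CPM (adjusted p = 4.5e-11). *Aldh1l1*, which also rose, is in both the astrocyte and the one-carbon list. The 8 endothelial markers summed to 476 to 487 CPM with vehicle and 476 to 502 CPM with TGF-β1, of which *Cdh5* gave 375 and 367 CPM on average and the other 7 summed to 104 to 111 and 124 to 128 CPM, with *Cldn5* and *Emcn* under 1 CPM. With vehicle, this sum was above that of the pericyte markers (419 to 439 CPM). Of 6 tested, *Flt1* rose (0.28, adjusted p = 1.2e-11), *Tek* fell (-0.45, adjusted p = 0.0126) and 4 did not pass the test. The 8 microglia and macrophage markers summed to 109 to 114 CPM and 109 to 111 CPM, mostly *Tmem119* (102 and 98.4 CPM on average), with *Cx3cr1*, *P2ry12*, *Aif1*, *Itgam* and *Ptprc* under 1 CPM. Without *Tmem119*, the other 7 summed to 8.53 to 9.27 CPM with vehicle and 9.94 to 11.5 CPM with TGF-β1. Of the 8 tested, 1 passed the test, *Csf1r*, which rose by 0.73 (adjusted p = 0.000222). The 8 fibroblast markers summed to 115 to 120 CPM and 109 to 117 CPM, with 6 of the 8 under 1 CPM. Without *Pdgfra*, the highest, the other 7 summed to 52.5 to 57.8 CPM with vehicle and 47.9 to 52.1 CPM with TGF-β1. Of 7 tested, 2 fell (*Dcn* by 0.16, adjusted p = 0.000372, and *Dpt* by 0.82, adjusted p = 0.049). *Mfap5*, at a mean under 1 CPM, rose by 2.16 (adjusted p = 4.2e-10). The 6 oligodendrocyte markers summed to 25.6 to 27.3 CPM and 20.2 to 23.6 CPM, with *Mog*, *Sox10* and *Olig2* under 1 CPM. Of these, *Cnp* gave most and fell from 21.5 to 15.9 CPM on average (adjusted p = 2.2e-08), while *Mbp* rose by 0.49 (adjusted p = 0.00411). The part of these cells in the results was not tested.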

How the data were processed

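RNA from 8 mouse brain pericyte cultures (4 vehicle, 4 TGF-β1) was prepared with a stranded total RNA kit. The authors aligned reads to mm10 with STAR 2.7.5c in 2-pass mode, took out PCR duplicates (SAMtools 1.15) and ran featureCounts 2.0.3 to count reads on genes. They deposited these raw counts without normalization. Strand setting, annotation release and the assignment of shared reads are not given in the sources used here. Of 54532 identifiers, 54495 matched GENCODE M21 (GRCm38).

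Counts were tested with edgeR 4.0.16 in R 4.3.3 (filterByExpr, TMM, robust quasi-likelihood test, threshold 0.05 on p-values adjusted by Benjamini-Hochberg across 22544 tested genes). The code was tested on simulated data. The labels share no replicate numbers between groups, so the groups were compared unpaired, although the methods describe 4 isolates given both treatments. Replicate pairs differed by 2.25 to 3.97 times the counting error (chi-square per degree of freedom), and none was counted as a repeat. Nothing in the labels says that the cultures came from separate animals, so p-values measure the spread between these cultures. Of counts from 1 to 20, 68.5% to 70.2% were even in each library, so both mates of a pair may have been counted. If every count were a mate pair, the closest pair (vehicle replicates 3 and 4, 2.25) would stand at 1.12.

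The 10 genes and the lists were chosen with earlier results of these data known. Beside the 10, a set of pathway genes was named whatever their values, with the 3 largest called changes of each list at a mean of at least 1 CPM. *Cct6a*, *Gclc*, *Slc7a5*, *Gpt2*, *Ddit4*, *Jdp2*, *Slc7a1*, *Slc7a3*, *Slc38a2*, the single marker genes given with values and the background of genes at 10 CPM or more were chosen after values were seen. The same holds for *Amt*, *Gcsh*, *Dld*, *Col1a2*, *Col5a1* and *Col11a2*. Promoter sequences are from RefSeq (GRCm38.p6), where all 10 genes had a window. Alternatives were DESeq2 1.42.0, other scalings and filters, halved counts and each culture left out.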

Additional observations from a re-analysis of the deposited data

Results flagged for a closer look

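In 4 of 120 groups of 4 cultures looked at, 1 culture lay far from the other 3 by Dixon's test, and chance gives about 1 in 20, or 6. All were TGF-β1 cultures. *Psat1* measured 115.1 CPM in replicate 8, with the nearest culture at 110.5 CPM. In replicate 6, *Shmt1* measured 14.94 CPM (nearest 16.17 CPM), *Atf5* 182.1 CPM (nearest 173.2 CPM) and *Aldh18a1* 84.76 CPM (nearest 81.33 CPM).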

How the results depend on the processing

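Of 59 named genes under 15 alternatives each (885 values), 858 kept their direction and side of the threshold, 11 lost the call and 16 changed sign. 53 genes changed under none of the alternatives. The calls lost were those of *Mthfd2* (report) and *Slc6a9*, the latter with DESeq2 and without vehicle replicates 1, 2 or 4 or TGF-β1 replicates 5 or 6 (adjusted p from 0.0562 to 0.104). The sign changed only in genes that never passed the test. *Atf4* was -0.0096 with library totals, -0.00435 with upper-quartile scaling and -0.00427 with every gene kept that had 1 count or more in a culture, and ran from -0.0131 to 0.0232 with a culture left out. *Eif2ak3* was 0.00052 with DESeq2. With a culture left out, *Eif2ak3* ran from -0.0245 to 0.0189, *Mthfd2l* from -0.0227 to 0.0485 and *Ddit3* from -0.0596 to 0.0114. For genes that did not pass the test the cause was not tested. The log2 difference of the *Shmt2* to *Shmt1* ratio was 0.743 with 1 count added and ran from 0.715 to 0.785 with a culture left out, where the exact permutation test cannot go below p = 0.0571. Among the 10 genes, 5 or 6 were higher and 1 lower under each alternative, and *Phgdh* kept its call in all. Chaperone genes called lower went from 1 to 2 with library totals or upper-quartile scaling. No paired analysis was run, because the groups share no replicate numbers and the labels give no pairing. The lowest count of the 10 genes in any culture was 447, against the limit of 3 counts.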
